A study of Rattus norvegicus with 16 samples.

Results

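Tat, Tdo2, Sds, Got1, Got2, Gpt, Gpt2 and Mdh1 encode transaminases and other enzymes that break down amino acids and pass their carbon towards glucose. They were chosen by symbol, with earlier results of these data known, and 8 of the 22587 symbols in the liver table are these genes. Their shares and medians are therefore set beside those of all genes as a description, not as a test of the set. All 8 passed the filter on low values and were tested among 12791 genes. RNA came from the livers of male Wistar-Wyoto rats aged 13 weeks, in 4 groups of 4 libraries. The groups were sham-operated rats that breathed air (SHAM air) or ozone at 0.8 ppm (SHAM ozone) for 4 hours, and rats whose adrenal glands had both been removed (ADREX) and that breathed air or ozone in the same way (ADREX air and ADREX ozone). Adrenalectomy takes away the cortex and the medulla together, so glucocorticoids, aldosterone and adrenaline are lost at once, and the labels name no hormone replacement. The study asks how these hormones shape the liver's response to inhaled ozone, a gas that oxidises and irritates the airway lining.

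In the fasting or stressed animal the liver makes glucose from amino acids. A transaminase moves the amino group of an amino acid onto a keto acid, which leaves a carbon skeleton that can enter glucose synthesis, and the nitrogen goes on to urea. Tyrosine aminotransferase (Tat) and tryptophan 2,3-dioxygenase (Tdo2) in rat liver are textbook cases of enzymes induced by glucocorticoids, and serine dehydratase (Sds) is known for induction by glucagon together with glucocorticoids and for repression by insulin. The aspartate aminotransferases of the cytosol (Got1) and of mitochondria (Got2) and cytosolic malate dehydrogenase (Mdh1) carry reducing power and oxaloacetate between the 2 compartments, and the alanine aminotransferases (Gpt in the cytosol, Gpt2 in mitochondria) turn alanine into pyruvate.

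Libraries held 8372891 to 14096246 reads, and the members were counted with 174 to 45610 reads per library. The summed level of 10 hepatocyte markers was 149773 to 211050 reads per 1000000 (RPM) per library in SHAM air and 143011 to 163376 in SHAM ozone. It was 119094 to 164981 RPM in ADREX air and 108090.1 to 214803 in ADREX ozone. Transcripts of nervous tissue were present in all groups: 23 markers of neurons and oligodendrocytes summed to 39.9 to 809 RPM (SHAM air), 72.1 to 2875 (SHAM ozone), 265 to 1174 (ADREX air) and 781 to 4515 (ADREX ozone), and none of them was at 0 in any group. The 3 highest libraries were ADREX ozone 82, SHAM ozone 18 and ADREX ozone 81. Skeletal muscle markers summed to at most 2.37 RPM and kidney tubule markers to at most 1.01 RPM in any library, with Ckm and Umod at 0. Kupffer cell markers summed to 366 to 613 RPM over the SHAM libraries and to 459.5 to 1040.2 RPM over the ADREX libraries. In such bulk samples fewer hepatocytes and less RNA per hepatocyte cannot be told apart. The treatment field of the labels gives ozone for the 4 ADREX air libraries, against their titles, and the titles were followed here. The labels do not state that libraries of a group are separate animals, so p-values measure the spread between these libraries.

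Promoters are shown for Tat, Tdo2 and Got1, as the sequences just upstream of genes whose levels the results turn on. They were taken from RefSeq on build GRCr8, and 6 of the 8 members had an entry, all but Sds and Gpt. Each line gives the 250 bases before the transcription start, 5′ to 3′ on the gene's own strand: Tat at chr19:54856354-54856603 on the plus strand, Tdo2 at chr2:169585587-169585836 on the minus strand and Got1 at chr1:252329872-252330121 on the minus strand.
Tat: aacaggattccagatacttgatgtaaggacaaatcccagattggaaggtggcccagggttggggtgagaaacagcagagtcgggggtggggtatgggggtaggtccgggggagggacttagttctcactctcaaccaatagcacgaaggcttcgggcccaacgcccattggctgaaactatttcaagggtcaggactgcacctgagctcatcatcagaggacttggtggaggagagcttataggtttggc
Tdo2: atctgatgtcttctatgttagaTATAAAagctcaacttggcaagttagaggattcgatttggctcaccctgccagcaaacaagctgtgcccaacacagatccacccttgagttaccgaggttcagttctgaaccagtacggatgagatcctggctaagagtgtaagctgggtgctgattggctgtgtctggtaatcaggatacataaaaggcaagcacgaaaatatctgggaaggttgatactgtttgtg
Got1: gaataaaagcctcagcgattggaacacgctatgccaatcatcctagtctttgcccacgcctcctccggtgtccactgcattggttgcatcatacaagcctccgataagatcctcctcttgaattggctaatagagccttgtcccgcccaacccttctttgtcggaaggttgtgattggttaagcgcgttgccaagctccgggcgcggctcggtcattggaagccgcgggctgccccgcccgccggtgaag
Capitals mark the single match found when both strands of the 6 promoters, with the first 50 bases of the transcript, were searched for 6 motifs. The motifs were the glucocorticoid receptor half-site AGAACA, its palindrome (AGAACA and TGTTCT with 3 bases between them), the cAMP response element TGACGTCA, its half-site TGACG (which the full element contains), the C/EBP type site TTGCNNCAA and the TATA box TATAAA. The match is TATAAA in Tdo2, starting 228 bases before the start site. It is a match of sequence only, and whether it acts as a TATA box was not tested. Among 33469 promoters of the same length, 20.7% held AGAACA, 0.0149% its palindrome, 1.83% TGACGTCA, 21.2% TGACG, 2.17% TTGCNNCAA and 14.2% TATAAA. The glucocorticoid response elements known for rat Tat lie further upstream than this window.

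With ozone in SHAM rats, Sds and Got1 rose and the other 6 members did not pass the limma test. Of the 8 members 2 were called, both higher (limma, p-values adjusted by Benjamini-Hochberg across the 12791 genes, threshold 0.05). Among all genes 1.58% were called in either direction and 0.946% were called higher. DESeq2 on the recovered reads also called Tat, Tdo2 and Mdh1, and it called 536 of the 12791 genes. The median log2 change of the members was 1.16, beside 0.01 over all genes tested. In 4 members, Sds, Got1, Tdo2 and Mdh1, every ozone library lay above every air library, which held for 5.14% of all genes. With ozone in ADREX rats no member was called by limma, edgeR or DESeq2, and 0 had an unadjusted limma p under 0.05. Limma called 0.125% of all genes there, and 17.8% had an unadjusted p under 0.05. All 8 members overlapped between these 2 groups, where 9.97% of all genes did not. The members' median there was −0.01, against 0.06 over all genes.

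Adrenalectomy was compared with sham surgery in each exposure. Under ozone Tdo2, Gpt and Mdh1 were lower in ADREX than in SHAM, 3 of 8 called lower where 6.48% of all genes were called lower and 12.5% called in either direction, and in 5 members every ADREX library lay below every SHAM library, which held for 9.94% of all genes. All 8 log2 differences were negative there, with a median of −0.97 against 0.11 over all genes tested. In air 1 member, Sds, was called, and it was higher in ADREX, where 1.49% of all genes were called higher and 3.53% in either direction. The test of the difference between the ozone effects in ADREX and in SHAM called 0 members by limma, where it called 0.109% of all genes. Of the 8 members 5 had an unadjusted p under 0.05 for that difference, beside 12.9% of all genes tested.

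**Figure D1:**
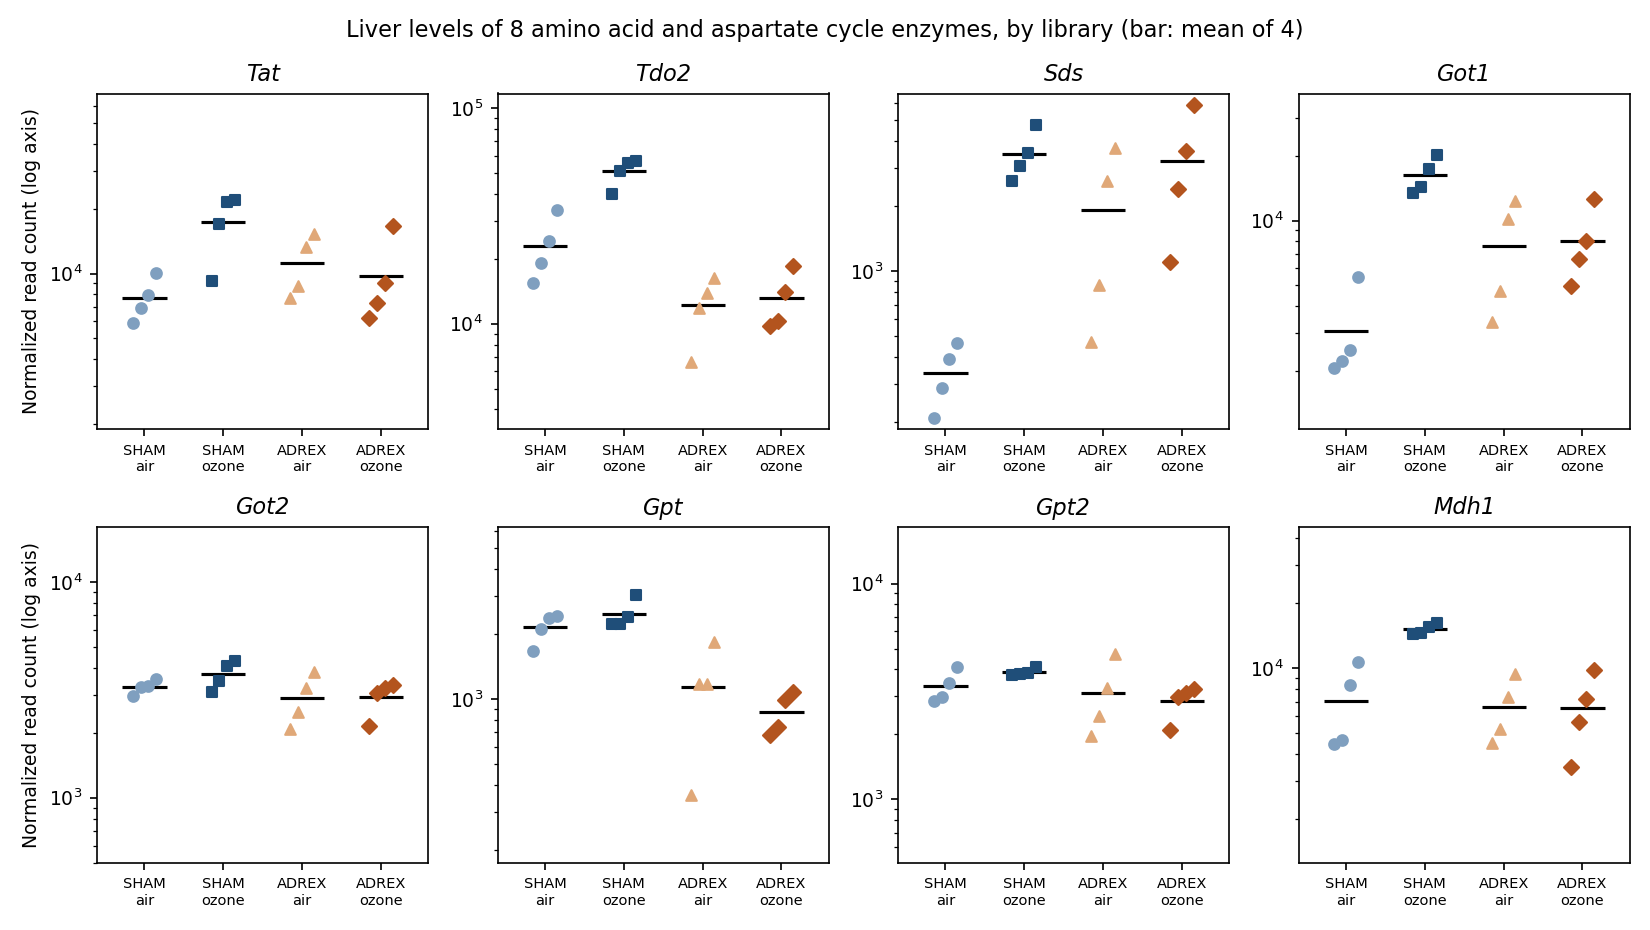
Normalized read counts (log axis, spanning the same ratio in each panel) of the 8 genes in 16 libraries, each point 1 library and each bar the mean of 4. Tat, Sds and Got1 have their lowest means in SHAM air, and Tdo2, Got2, Gpt, Gpt2 and Mdh1 have theirs in the 2 ADREX groups.

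Serine dehydratase showed the widest range of the members. Sds stood at 393, 209, 288 and 464 normalized counts in SHAM air libraries 1 to 4, and at 3523, 3079, 2615 and 4771 in SHAM ozone libraries 17 to 20. The 2 groups did not overlap, and the change was 10.5-fold (log2 3.39 ± 0.56 SE, limma adjusted p = 0.00766). It passed in all 17 alternative settings, among them without SHAM ozone 18 and the 2 other libraries richest in neural markers, where the log2 change was 3.44. In ADREX air the values split into 2 high libraries, 65 at 2617 and 68 at 3736, and 2 low ones, 66 at 860.0 and 67 at 471. ADREX ozone libraries 81 to 84 held 2404, 3607, 5899 and 1104. The highest library exceeded the lowest 7.94-fold in ADREX air and 5.34-fold in ADREX ozone, against 2.22-fold in SHAM air and 1.82-fold in SHAM ozone.

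In air Sds was thus higher without adrenal glands, 1921 ± 1528 in ADREX against 338 ± 112 in SHAM (mean ± SD, n = 4 each), and the 2 groups did not overlap, although the lowest ADREX library at 471 lay just above the highest SHAM library at 464. Non-overlap in this direction held for 4.24% of all genes. The log2 difference was 2.12 ± 0.56 with a limma adjusted p of 0.0482, and this call was fragile: it held in 6 of 17 alternative settings. The adjusted p was 0.151 without SHAM air 2, 0.138 without ADREX air 65 and 0.146 without ADREX air 68. The call also ended without SHAM air 1, 3 or 4 or ADREX air 66 (adjusted p = 0.0728, 0.051, 0.0828 and 0.0696) and with the neural score added to the model (0.122), while the log2 difference stayed between 1.65 and 2.65 in all 17. Under ozone ADREX and SHAM did not differ in Sds beyond the spread (log2 −0.32, 95% interval −1.51 to 0.88, adjusted p = 0.739). The ozone change within ADREX was 0.96 (−0.23 to 2.15, adjusted p = 0.391). The ozone effect in ADREX minus that in SHAM was −2.44 on the log2 scale (interval −4.12 to −0.75, limma adjusted p = 0.223). DESeq2 on the recovered reads gave −2.66 with an adjusted p of 0.0201 for that difference, and limma and edgeR did not call it.

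Tyrosine aminotransferase, the first enzyme of tyrosine breakdown, varied less. Tat had 7976, 5888, 6943 and 10057 normalized counts in SHAM air and 21347, 9191, 22011 and 16976 in SHAM ozone. Of the ozone libraries 3 lay above every air library, and library 18, one of the 3 richest in neural markers at 2875 RPM, lay within the air range. The change of 1.12 ± 0.33 did not pass (limma adjusted p = 0.0963), and without library 18 it was 1.40 with an adjusted p of 0.0466. It passed in 3 of 17 alternatives, DESeq2 among them. ADREX air libraries 65 to 68 held 13241, 8727, 7674 and 15242, and ADREX ozone libraries 81 to 84 held 6203, 7271, 16628 and 9001. These groups overlapped each other and both SHAM groups. The differences were 0.51 between ADREX and SHAM in air (interval −0.19 to 1.21) and −0.86 under ozone (−1.56 to −0.16, limma adjusted p = 0.0931). The latter had an adjusted p of 0.0299 without SHAM ozone 18 and 0.0342 without ADREX ozone 83, and DESeq2 called it too. By mean level the order was SHAM ozone, ADREX air, ADREX ozone and SHAM air, and each neighbour in it overlapped the next.

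Tryptophan 2,3-dioxygenase, the heme enzyme that opens the kynurenine route of tryptophan breakdown, followed another order. Tdo2 had 19038, 24066, 15359 and 33576 normalized counts in SHAM air, and 50756, 55794, 39978 and 56827 in SHAM ozone. The SHAM groups did not overlap, but the change of 1.19 ± 0.30 missed the threshold (adjusted p = 0.054, and between 0.00687 and 0.153 over 17 alternatives, of which 3 passed). In ADREX air the libraries held 11798, 6646, 16357 and 13931, and in ADREX ozone 18565, 10303, 9754 and 14018. The ADREX groups overlapped, with an ozone change of 0.14 (interval −0.49 to 0.76).

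Under ozone Tdo2 was 3.96-fold lower in ADREX than in SHAM (log2 −1.99 ± 0.30, limma adjusted p = 0.000846), with every ADREX library below every SHAM library. This call held in all 17 alternatives, where the log2 difference was −2.17 to −1.86. In air the difference was −0.93 ± 0.30 and did not pass (limma adjusted p = 0.0954). It passed in 3 of 17 alternatives, with DESeq2, without SHAM air 3 and without ADREX air 67. The lowest SHAM air library, at 15359, lay below the highest ADREX air library, at 16357. The ozone effects in ADREX and SHAM differed by −1.05 (interval −1.94 to −0.17, adjusted p = 0.306).

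**Figure D2:**
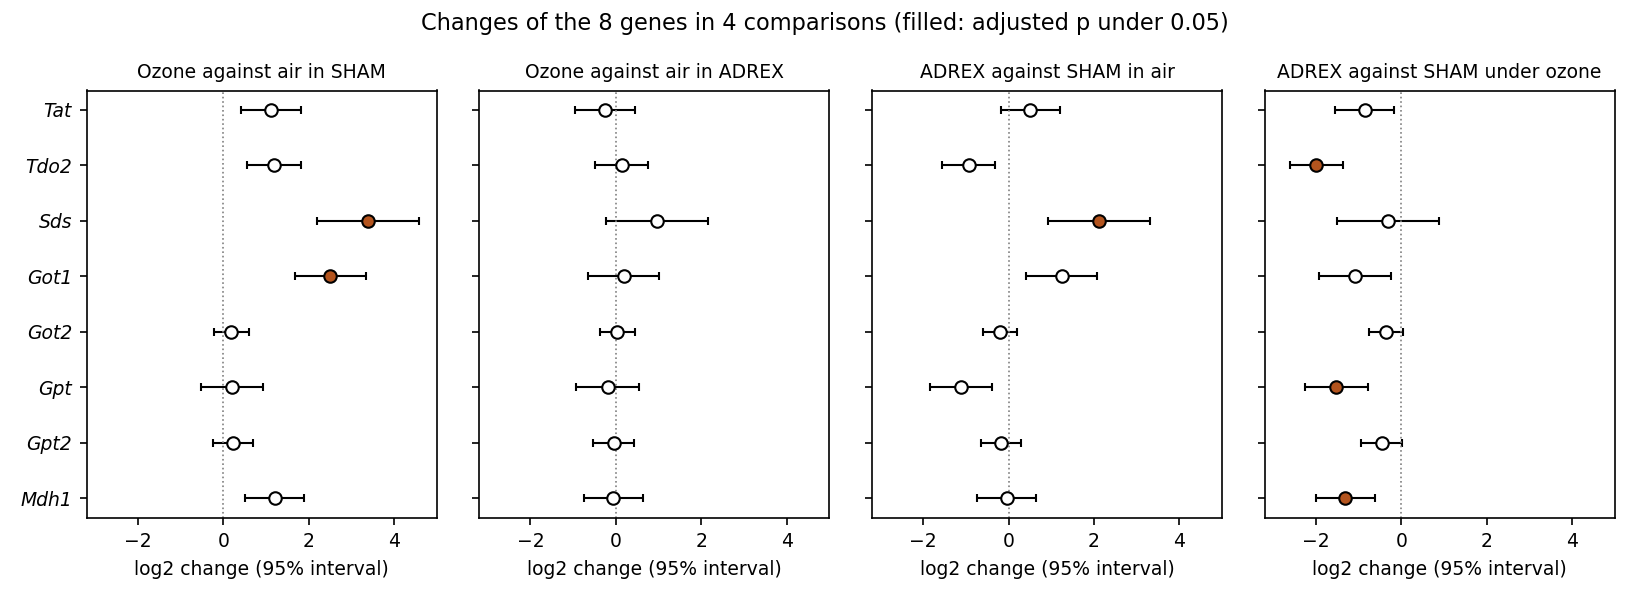
Log2 changes of the 8 genes with 95% intervals in 4 comparisons, from the limma fit to 16 libraries, with filled points for adjusted p under 0.05. Sds and Got1 pass for ozone in SHAM, Sds for adrenalectomy in air, and Tdo2, Gpt and Mdh1 for adrenalectomy under ozone.

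The cytosolic aspartate aminotransferase rose with ozone in SHAM and the mitochondrial one did not pass the test. Cytosolic Got1 had 2509, 2233, 2080.0 and 5468 normalized counts in SHAM air and 17385, 14301, 13421 and 20109 in SHAM ozone. The groups did not overlap, and Got1 rose 5.69-fold (log2 2.51 ± 0.40, limma adjusted p = 0.00611), a call kept in all 17 alternatives with changes of 2.36 to 2.83. Mitochondrial Got2 ranged from 2963 to 3555 in SHAM air and from 3089 to 4305 in SHAM ozone, and from 2083 to 3823 (air) and 2158 to 3329 (ozone) in ADREX. All 4 groups overlapped, and the ozone change in SHAM was 0.19 with an interval of −0.22 to 0.59.

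In ADREX rats the group means of Got1 lay between those of the SHAM groups, and the libraries overlapped those of SHAM air. Libraries 65 to 68 in air held 10132, 4732, 3395 and 12358, with 65 and 68 high as for Sds, and libraries 81 to 84 under ozone held 6635, 8019, 12639 and 4952. Every ADREX ozone library was below every SHAM ozone library, but the difference of −1.08 ± 0.40 did not pass (limma adjusted p = 0.0796). It passed in 2 of 17 alternatives, with DESeq2 and with the groups compared alone. The difference of 1.24 ± 0.40 in air did not pass either (limma adjusted p = 0.0958). It passed in 2 of 17 alternatives, with DESeq2 and without ADREX air 67 (0.0237 for the latter). The ozone change within ADREX was 0.18 (interval −0.65 to 1.02). The difference between the ozone effects, −2.33 ± 0.56, had an unadjusted p of 0.0007 and a limma adjusted p of 0.118. With DESeq2 it was −2.38 with an adjusted p of 0.00331.

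A ratio of 2 genes within a library does not depend on how that library was scaled; it is compared here between groups only, since gene lengths were not taken into account. The ratio of Got1 to Got2 counts was 0.640 to 1.67 in SHAM air and 3.29 to 4.99 in SHAM ozone, without overlap. It spread over 0.888 to 4.05 in ADREX air and 1.49 to 3.91 in ADREX ozone. The ozone difference in SHAM was 2.32 on the log2 scale. Its exact permutation p (two-sided) was 0.0286, the smallest that 4 against 4 libraries allow, and the value adjusted over 12 ratio tests was 0.114. In ADREX the ozone difference of the ratio was 0.15 (exact p = 0.971).

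Cytosolic malate dehydrogenase, which works beside Got1 in the malate-aspartate shuttle, had 8351, 4455, 10693 and 4643 normalized counts in SHAM air. In SHAM ozone Mdh1 had 14554, 16232, 14367 and 15533, all above the air libraries and within 1.13-fold of each other. The change of 1.21 ± 0.32 did not pass (adjusted p = 0.0707). It passed without SHAM air 3 (0.0243) and with DESeq2 (0.0168). ADREX air libraries held 5249, 4479.9, 7351 and 9425, and ADREX ozone libraries 7226, 9821, 5611 and 3487. Under ozone Mdh1 was 2.48-fold lower in ADREX than in SHAM (log2 −1.31 ± 0.32, limma adjusted p = 0.0163), with no overlap, and it passed in all 17 alternatives. In air the difference was −0.05 (interval −0.73 to 0.64). Mdh1 is also abundant in nerve and muscle. ADREX ozone held more neural marker RNA than SHAM ozone in its lowest and highest library. When the neural score entered the fit the Mdh1 difference under ozone was −1.64 (limma adjusted p = 0.0044). What neural RNA contributed to the difference was not tested.

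Of the alanine aminotransferases only the cytosolic enzyme was called in any comparison by limma. Gpt had 2369, 1667, 2425 and 2115 normalized counts in SHAM air and 2399, 2219, 2234 and 3026 in SHAM ozone. In ADREX air it had 1177, 360.1, 1176 and 1836, where library 66 was lowest, and in ADREX ozone 679, 1079.9, 738 and 987. Every ADREX ozone library lay below every SHAM ozone library, a 2.86-fold difference (log2 −1.52 ± 0.35, limma adjusted p = 0.0108). That call held in 16 of 17 alternatives and ended without the 3 libraries richest in neural markers (log2 −1.57, adjusted p = 0.0861), which leaves 2 libraries in ADREX ozone. In air the difference was −1.12 ± 0.35 and did not pass (adjusted p = 0.0897, and 0.0382 without ADREX air 68). With ozone Gpt changed by 0.21 in SHAM (interval −0.53 to 0.94) and by −0.19 in ADREX (−0.93 to 0.54).

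Mitochondrial Gpt2 ranged from 2845 to 4119.5 normalized counts in SHAM air and from 3764 to 4103 in SHAM ozone, and from 1960.3 to 4740.0 (air) and 2104 to 3238 (ozone) in ADREX. Under ozone the ADREX libraries all lay below the SHAM libraries, yet the difference of −0.46 ± 0.23 did not pass (adjusted p = 0.176). The ratio of Gpt to Gpt2 was 0.484 to 0.833 in SHAM air and 0.545 to 0.791 in SHAM ozone, against 0.184 to 0.483 in ADREX air and 0.217 to 0.513 in ADREX ozone. Neither ADREX group overlapped the SHAM group of the same exposure, by a narrow gap in air. The log2 differences of the ratio were −0.94 in air and −1.06 under ozone (exact permutation test, p = 0.0286 for each, adjusted p = 0.114 for each).

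**Figure D3:**
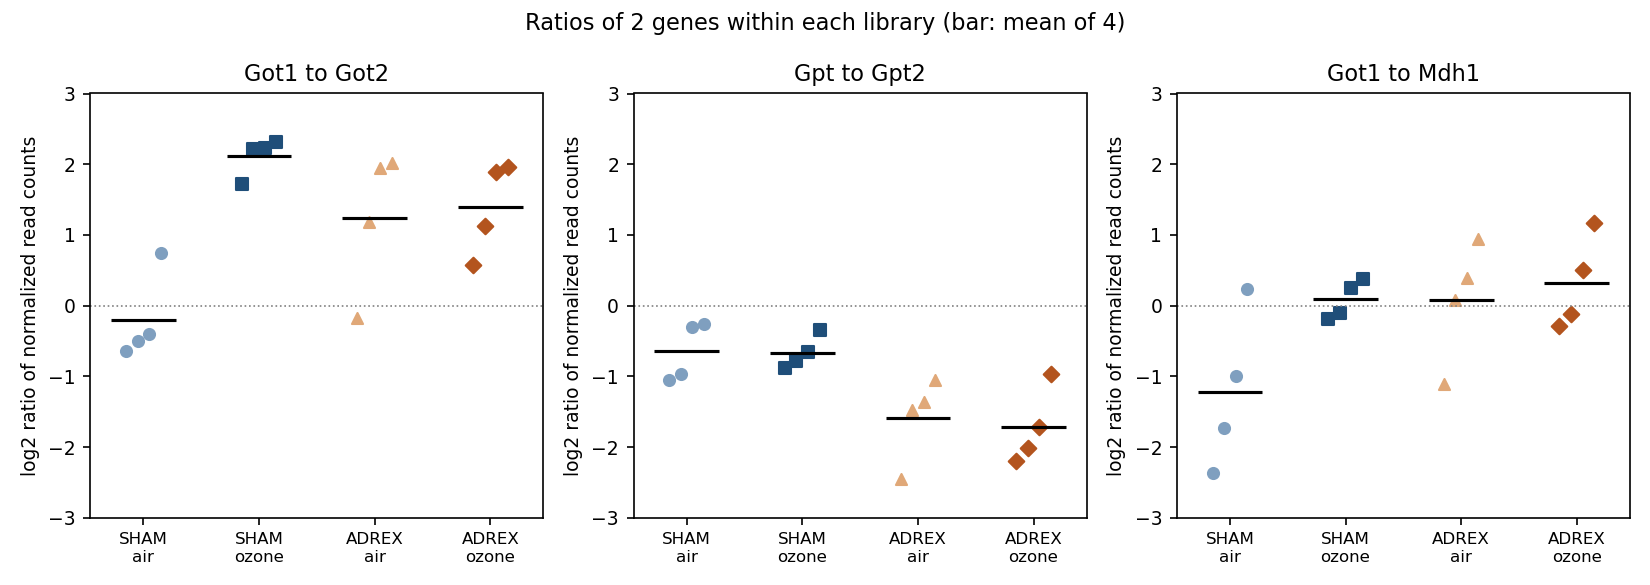
Log2 ratios of normalized counts of 2 genes in the same library, with 4 libraries a group and the mean as a bar. Got1 to Got2 is highest in SHAM ozone, Gpt to Gpt2 is lower in both ADREX groups, and Got1 to Mdh1 overlaps between all groups.

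Sds and Got1 also moved together from library to library inside the groups. After each group's mean was removed, their log2 values over 16 libraries had r = 0.92 (permutation within groups, p = 8.0e-05, adjusted p = 0.00224 over 28 pairs) and rho = 0.95 (permutation p = 3.0e-05, adjusted p = 0.00084). Without the 2 libraries farthest from the median of Sds, r was 0.87. This was the single pair of 28 with an adjusted p under 0.05. Tat correlated with Got1 at r = 0.67 (permutation p = 0.00776, adjusted p = 0.109; rho = 0.61, adjusted p = 0.285; r = 0.69 without the 2 farthest libraries) and with Sds at r = 0.60 (permutation p = 0.0362, adjusted p = 0.338; rho = 0.62, adjusted p = 0.285; r = 0.60 without 2). Tdo2 and Sds had r = −0.04 (permutation p = 0.922; rho = 0.07; r = −0.26 without 2).

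**Figure D4:**
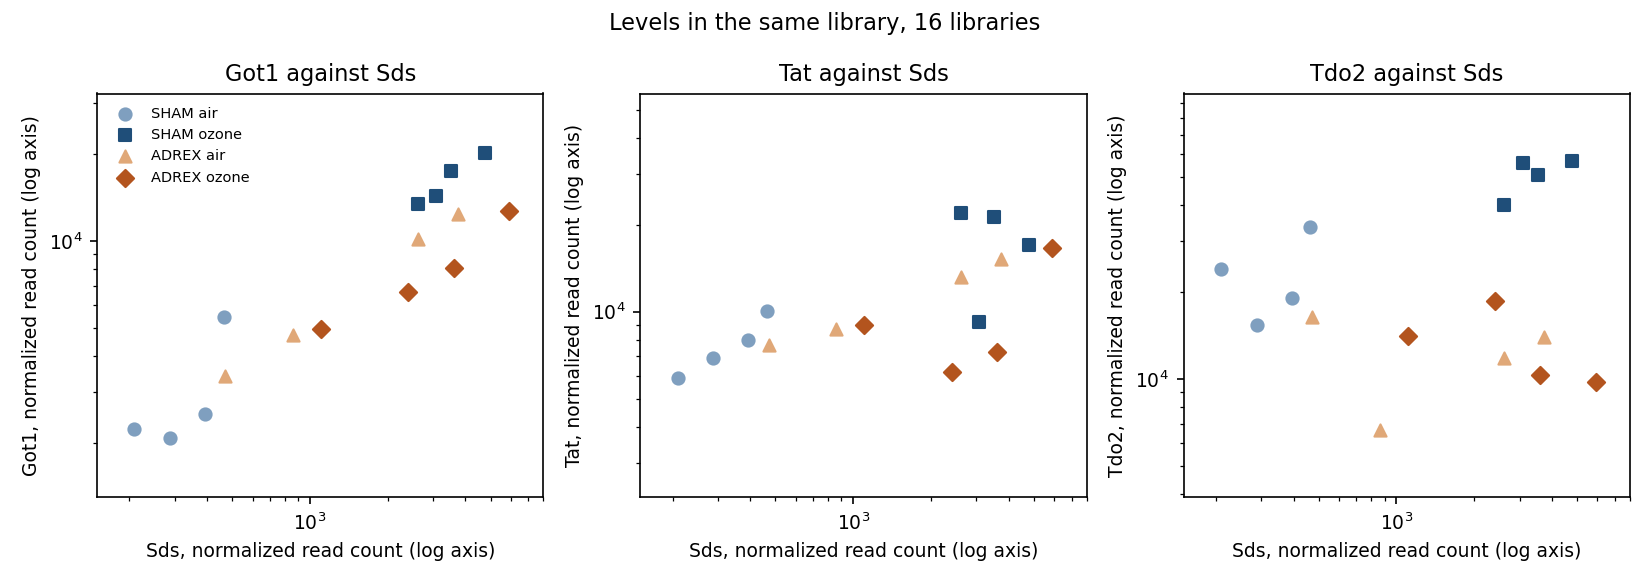
Normalized counts of Got1, Tat and Tdo2 against Sds in each of 16 libraries (log axes), with symbols for the 4 groups. Got1 climbs with Sds across and within groups. Tdo2 is below every SHAM ozone library in all ADREX libraries, and those with Sds as high as SHAM ozone have Tdo2 between 9754 and 13931.

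Likeness of pattern was measured for Tat, Tdo2, Sds and Got1 as Pearson's r of log2 values over the 16 libraries. It is a description that mixes differences between and within groups. Among all genes tested Got1 was the gene most like Sds (r = 0.93), followed by Atp1b1, a subunit of the sodium pump (0.90), and Slc25a33, a mitochondrial pyrimidine nucleotide carrier (0.89). Nearest to Got1 were Slc25a15, the mitochondrial ornithine carrier of the urea cycle (0.94), then Sds and Tpte2 (0.91). Slc25a15 averaged 10628 ± 2549 normalized counts (SD, n = 4) in SHAM air and 45123 ± 5279 in SHAM ozone, and in ADREX 18545 ± 9332 (air) and 19643 ± 7613 (ozone). Tat was most like Pptc7, a mitochondrial phosphatase (0.84), Coq10b, a coenzyme Q binding protein (0.83), and Ppargc1a, a coactivator of fasting metabolism (0.82). Tdo2 was most like Etnppl, an enzyme that breaks down phosphoethanolamine (0.95), Edem1, which sorts misfolded proteins for degradation (0.95), and Trim36 (0.95). Etnppl averaged 8643 ± 4913 in SHAM air and 22087 ± 4226 in SHAM ozone, but 1461 ± 883 (air) and 1523 ± 883 (ozone) in ADREX. In these rankings Got1 stood 6 in the list for Tat, and Tdo2 stood 1084.

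The other genes of the same routes were read from lists of enzymes and carriers. Limma called 0 of them for ozone in either surgery group or for the difference between the ozone effects, over 13 other transaminases and related enzymes, 7 genes of phenylalanine and tyrosine breakdown, 8 of the kynurenine route, 13 of serine, glycine and threonine metabolism and 14 of the malate-aspartate shuttle and pyruvate entry. For ozone in SHAM 6, 1, 1, 3 and 4 of them had an unadjusted p under 0.05, with list medians of 0.33, 0.26, −0.15, 0.16 and −0.05, beside 0.01 over all genes, of which 18.4% had such a p. In ADREX 3, 1, 0, 3 and 1 of them had such a p for ozone, where 17.8% of all genes did, and for the difference 2, 0, 0, 1 and 1, where 12.9% did. Hpd, the enzyme that follows Tat, did not pass in any of the 5 comparisons. Its mean was 20652 ± 1637 in SHAM ozone and 17176 ± 2931 in SHAM air.

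Behind Tdo2, genes of the kynurenine route differed between ADREX and SHAM in both exposures, with members called in both directions. In air 1 of 8 was higher and 2 were lower in ADREX, and under ozone 1 was higher and 3 were lower. Over all genes tested 3.53% were called in either direction in air and 12.5% under ozone. Kynu, kynureninase, was at 1479 ± 861 in ADREX against 7029 ± 928 in SHAM in air (log2 −2.43 ± 0.39, adjusted p = 0.00287). It was 4999 ± 1279 in SHAM ozone and 1717 ± 1005 in ADREX ozone (−1.66 ± 0.39, adjusted p = 0.0118). Kmo, kynurenine 3-monooxygenase, was higher in ADREX, at 2256 ± 343 against 1078 ± 146 in air (1.06 ± 0.21, adjusted p = 0.0108) and at 2068 ± 666 against 821 ± 152 under ozone (1.29 ± 0.21, adjusted p = 0.00144). Acmsd, which steers the route away from NAD synthesis, was lower in ADREX, with log2 differences of −1.52 in air and −1.31 under ozone (adjusted p = 0.0227 and 0.0223). Ido2, a second enzyme of the first step, was lower under ozone at 40.4 ± 7.22 against 85.3 ± 20.1 (adjusted p = 0.044).

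In the list of the shuttle and pyruvate entry Glud1, glutamate dehydrogenase, which frees the amino group that transaminases collect, was lower in ADREX in air (6215 ± 1866 against 15807 ± 3919, log2 −1.36 ± 0.22, adjusted p = 0.00338) and under ozone (6632 ± 1323 against 12840.4 ± 1529, −0.97 ± 0.22, adjusted p = 0.0111). Pc, pyruvate carboxylase, was lower in air (3934 ± 574 against 6719 ± 367, adjusted p = 0.02). Pck1, the enzyme that commits oxaloacetate to glucose synthesis, averaged 51988 ± 10922 in SHAM air and 34846 ± 12405 in SHAM ozone, a change of −0.63 ± 0.29 that did not pass (adjusted p = 0.26). Among other transaminases Ccbl1, a kynurenine aminotransferase, was higher in ADREX in air (1140.1 ± 210 against 584 ± 89.6, adjusted p = 0.0151) and Ccbl2 under ozone (3465 ± 423 against 2456 ± 222, adjusted p = 0.0442), while Etnppl was lower in both (log2 −2.74 and −4.03, adjusted p = 0.00925 and 0.000404). Gnmt, glycine methyltransferase, was lower in air, and Dld and Sardh, of glycine and sarcosine breakdown, were lower under ozone (adjusted p = 0.0455, 0.0188 and 0.0248).

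Of 16 hormone receptors and regulators 1 was called for ozone in SHAM, where 1.58% of all genes were, the glucocorticoid receptor target Fkbp5, which rose by 2.08 ± 0.30 (log2, adjusted p = 0.00287). The glucocorticoid receptor gene Nr3c1 averaged 3705 ± 778 in SHAM air and 2219 ± 543 in SHAM ozone (−0.75 ± 0.21, adjusted p = 0.089). Under ozone 3 of the 16 were lower in ADREX and 0 higher, where 6.48% of all genes were called lower and 12.5% in either direction. Fkbp5 was at 365 ± 137 against 2104 ± 693 (log2 −2.56 ± 0.30, adjusted p = 0.000211), Insr, the insulin receptor, at 1672 ± 355 against 3040 ± 158 (adjusted p = 0.00259), and Foxo1, a transcription factor that insulin restrains, at 303 ± 98.3 against 1214 ± 499 (adjusted p = 0.00332). In air the glucagon receptor gene Gcgr was lower in ADREX, 468 ± 47.6 against 831 ± 131 (log2 −0.82 ± 0.17, adjusted p = 0.0137). Ppargc1a, whose pattern resembled that of Tat, averaged 136 ± 32.4 normalized counts in air and 409 ± 177 under ozone in SHAM, and 144 ± 43.3 and 223 ± 140.2 in ADREX, and it was not called in any comparison (adjusted p = 0.079 for ozone in SHAM).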

How the data were processed

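The table deposited by the authors holds signal values, read counts divided by 1 size factor per library. Partek, DESeq2 and genome build rn6 were used per the submitters' processing notes. Not given in the sources used here were their versions, the aligner, the counting method, strand and annotation. Values within a library were multiples of 1 step, and dividing by it gave whole reads (100% of values within 0.01 of a whole number). Libraries were grouped by title. Normalized counts in the text are the values as deposited; RPM are recovered reads per 1000000.

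Values were transformed as log2(value + 1), and 12791 genes passed a minimum mean of 14.7, or 1 in 1000000 of the median library's summed values. They were tested with limma-trend 3.58.1 in R 4.3.3, as 4 group means over 16 libraries, two-sided, with Benjamini-Hochberg adjustment over all genes tested. Fold changes are on the log2(value + 1) scale. The fit was tested on simulated data with genes changed in SHAM ozone. It called 32 of 100 genes changed 2-fold and 88 of 100 changed 4-fold, with 4 false calls. A change near 2-fold could thus miss the threshold. Alternatives were a pseudocount of 10, no filter, TMM or median of ratios rescaling, edgeR 4.0.16 and DESeq2 1.42.0 on recovered reads, a fit to the groups compared, leaving out each library of those groups, a neural score (log2 of the summed neural markers plus 1) as a covariate, and leaving out the 3 libraries richest in them. Ratios used exact permutation tests, and correlations 100000 permutations within groups. The 8 members are always named. Members of 6 pathway lists are named if called, up to 4 per list and comparison by size of change, and Hpd, Pck1 and Nr3c1 were chosen after their values were seen; 1 called gene is not reported here. The 3 most similar genes are named for Tat, Tdo2, Sds and Got1. Members and lists were chosen with earlier results of these data known. Intervals are at 95% confidence.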

Additional observations from a re-analysis of the deposited data

How the results depend on the processing

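The rise of Sds and Got1 with ozone in SHAM and the lower Tdo2 and Mdh1 in ADREX under ozone passed in all 17 alternatives run for each. The higher Sds in ADREX air did not: it passed in 6 of 17. Of the alternative values for single members, 677 kept direction and side of the threshold, 21 gained a call, 12 lost one and 26 turned sign, the last among values that were not called. The cause was not tested. Members called for adrenalectomy in air numbered 0 with no filter, with the fit to the groups compared, with the neural score in the model and without the 3 most neural-rich libraries, and 0 to 3 when 1 library was left out. With DESeq2 5, 3, 5 and 2 members were called for ozone in SHAM, adrenalectomy in air, adrenalectomy under ozone and the difference of ozone effects, beside 2, 1, 3 and 0 with limma. Of the 12791 genes tested DESeq2 called 536, 835, 2193 and 248 in the same comparisons.

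Over all genes limma called 202 for ozone in SHAM (121 higher), 16 for ozone in ADREX (5 higher), 451 for adrenalectomy in air, 1601 under ozone (772 higher) and 14 for the difference. DESeq2 gave 536, 570, 835, 2193 and 248 for ozone in SHAM, ozone in ADREX, adrenalectomy in air, adrenalectomy under ozone and the difference. EdgeR gave 49 for ozone in ADREX and 24 for the difference. For ozone in ADREX the count was 26 with a pseudocount of 10, 36 with no filter, 2 with the groups compared alone, 27 with the neural score and 1 without the 3 neural-rich libraries. For adrenalectomy in air it was 212 with the groups alone and 194 with the neural score. Without the 3 libraries it was 107 for ozone in SHAM and 479 for adrenalectomy under ozone. For adrenalectomy under ozone TMM gave 1690, of which 559 were higher. Leaving out 1 library gave 38 (without SHAM ozone 20) to 658 (without SHAM air 3) for ozone in SHAM, 0 to 50 (without ADREX air 67) for ozone in ADREX, 194 (without ADREX air 66) to 1004 (without SHAM air 3) for adrenalectomy in air, 787 (without SHAM ozone 20) to 1692 under ozone and 3 to 33 for the difference. The counts of 0 by limma, without ADREX air 65 or 66 or ADREX ozone 82 or 84, stood beside 1503 to 2242 genes with an unadjusted p under 0.05.

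Signs turned for uncalled values near 0. For ozone in ADREX Got2 was −0.014 with TMM, −0.027 with median of ratios, −0.063 with edgeR and −0.038 with DESeq2, and without the 3 libraries Tat was 0.18 and Gpt2 0.083. Leaving out 1 library gave ranges for ozone in ADREX of −0.14 to 0.48 for Got1, −0.11 to 0.18 for Got2, −0.67 to 0.11 for Gpt, −0.25 to 0.18 for Gpt2, −0.29 to 0.21 for Mdh1 and −0.13 to 0.30 for Tdo2. For adrenalectomy in air the ranges were −0.41 to 0.017 for Gpt2 and −0.23 to 0.19 for Mdh1, and under ozone −0.68 to 0.12 for Sds. For log2 ratios they were −0.32 to 0.42 (Got1 to Got2, ozone in ADREX), −0.057 to 0.43 (Got1 to Mdh1, adrenalectomy under ozone), −0.16 to 0.53 (Got1 to Mdh1, ozone in ADREX), −0.43 to 0.039 (Gpt to Gpt2, ozone in ADREX) and −0.15 to 0.11 (Gpt to Gpt2, ozone in SHAM, and 0.022 without the 3 libraries). No paired analysis was possible because the groups share no replicate numbers.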
